A study of Homo sapiens with 7 samples.

Results

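Of 41562 autosomal H3K27ac HiChIP loops listed for T-47D breast cancer cells, 2157 were also listed for LNCaP prostate cancer cells and for Ishikawa endometrial cancer cells. A loop was counted as common when its 2 anchors each overlapped, by 1 bp or more, the 2 anchors of 1 loop in the LNCaP list and the 2 anchors of 1 loop in the Ishikawa list. The members were thus chosen by the positions of loops that had passed a minimum of 3 read pairs in each list, and made up 5.19% of the T-47D loops (95% Wilson interval 4.98 to 5.41). A further 13988 loops (33.7%) were found in LNCaP and not in Ishikawa, 2017 (4.85%) in Ishikawa and not in LNCaP, and 23400 (56.3%) in neither list. The common loops were shorter than those found in neither list, with a median span of 33.8 kb against 108 kb. At 10 or more T-47D read pairs these medians were 23.2 and 29.5 kb. Promoters were at both anchors of 56.9% of common loops, against 23.2% of loops found in neither list. The classes most like them shared these traits in part. Loops found in LNCaP and not in Ishikawa had promoters at both anchors in 57.8%. Loops found in Ishikawa and not in LNCaP had a median span of 36.8 kb. The common loops held promoters of 2269 protein-coding genes, 23.3% of those with a promoter in a T-47D loop anchor. The T-47D lineage factors GATA3 and TRPS1, with 58 and 91 T-47D promoter loops, were not among these genes.

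HiChIP joins proximity ligation with an immunoprecipitation, here of histone H3 acetylated at lysine 27 (H3K27ac). The lists rest on 7 samples: 1 of T-47D, 2 of LNCaP and 4 of Ishikawa. The Ishikawa cells had received DMSO (2 samples) or 10 nM 17β-estradiol (2 samples) for 1 h, and no treatment is given for T-47D or LNCaP. Each line is a single established cell line, and its samples were combined into 1 list, so that there is no replicate error and no test between classes of loops. Ishikawa chromatin was cut with DpnII, sonicated on another instrument and sequenced more deeply with shorter reads. T-47D and LNCaP were cut with MboI and handled alike. Both enzymes cut at GATC, but cell line, treatment, fragmentation and depth cannot be told apart.

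Promoters and enhancers that are active carry H3K27ac, and contacts between them are thought to bring regulatory sites close to the genes they act on. Promoters of genes that every cell uses are acetylated in most tissues. Distal enhancers, by contrast, are the part of the regulatory genome that differs most between cell types, and the factors that define a lineage are usually controlled by them.

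The LNCaP list held 146350 autosomal loops and the Ishikawa list 163435, with 348544 read pairs in the T-47D loops, 1777734 in the LNCaP loops and 1039862 in the Ishikawa loops. Median anchor width was 2.62 kb in T-47D, 3.23 kb in LNCaP and 5.10 kb in Ishikawa, and anchors covered 1.89%, 5.71% and 18.9% of the autosomes. The LNCaP list held no loop outside 5 kb to 2 Mb, whereas 682 T-47D loops lay outside these limits. Markers followed the labels: the T-47D list held 58 loops at the GATA3 promoter, the LNCaP list 61 at KLK3 and the Ishikawa list 14 at PAX8. T-47D had no loop at KLK3 or PAX8, and LNCaP none at GATA3.

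The strongest common loops were ranked by the lowest of their 3 percentiles of read pairs. Of the 8 leading loops, 3 lay beside MALAT1, described with the read pairs, and 4 joined neighbouring protein-coding promoters, so the sequence just before their start sites is shown. The strongest of these 4 was on chromosome 10, between chr10:75005829-75007704, at the promoter of DNAJC9, a J-domain cochaperone of histones, and chr10:75011197-75013777, at MRPS16, a mitochondrial ribosomal protein. It spanned 5.72 kb and had 77 read pairs in T-47D, 134 in LNCaP and 34 in Ishikawa. A loop of 8.68 kb on chromosome 6 joined PFDN6 and WDR46 (chr6:33256462-33258517) to RGL2 (chr6:33264258-33268080), with 113, 118 and 33 read pairs. On chromosome 7, TMEM184A (chr7:1598064-1600807) met PSMG3, a proteasome assembly factor (chr7:1608686-1610860), with 59, 124 and 28 read pairs. On chromosome 16, an anchor over MYL11 and TBC1D10B (chr16:30380433-30384056) met 1 over another start site of MYL11 and over ZNF48 (chr16:30388655-30390351), with 38, 65 and 28 read pairs. Each was present in all 4 parts of the Ishikawa list.

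The 100 bases before the outermost start site inside these anchors are given 5′ to 3′ on the gene's strand, from GRCh37 (hg19). Capitals mark a CCAAT box (CCAAT), a GC box (GGGCGG), or the ETS (CCGGAAG) or YY1 (AAGATGGC) letters, or TATAAA or the NRF1 core, searched on both strands with overlapping matches merged. For DNAJC9, MRPS16, PFDN6 and WDR46 the window lay over an annotated exon and is not shown, and that of PSMG3 is not shown either.
RGL2, chr6:33266720-33266819, minus strand: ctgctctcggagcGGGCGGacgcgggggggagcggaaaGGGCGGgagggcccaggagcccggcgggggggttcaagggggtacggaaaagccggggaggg
TMEM184A, chr7:1600458-1600557, minus strand: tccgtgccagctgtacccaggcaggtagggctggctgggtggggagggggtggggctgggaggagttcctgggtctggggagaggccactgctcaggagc
TBC1D10B, chr16:30381816-30381915, minus strand: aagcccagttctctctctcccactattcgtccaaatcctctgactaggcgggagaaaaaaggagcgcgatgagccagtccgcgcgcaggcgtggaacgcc
MYL11 in the left anchor, chr16:30382155-30382254, plus strand: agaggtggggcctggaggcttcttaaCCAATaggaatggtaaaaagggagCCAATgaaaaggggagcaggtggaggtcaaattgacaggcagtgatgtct
MYL11 in the right anchor, chr16:30388784-30388883, plus strand: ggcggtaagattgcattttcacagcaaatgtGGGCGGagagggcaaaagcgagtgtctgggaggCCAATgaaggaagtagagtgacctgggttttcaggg
ZNF48, chr16:30389327-30389426, plus strand: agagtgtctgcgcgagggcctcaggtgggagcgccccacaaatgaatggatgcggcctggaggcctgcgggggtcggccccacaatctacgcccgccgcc

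Over all 2269 genes with a promoter in a common loop, the window of 100 bases held a CCAAT box in 22.3%, a GC box in 46.9% and the ETS letters in 10.05% (8.88 to 11.4). Among the 1738 genes whose T-47D loops were all found in neither list, these shares were 18.99%, 44.9% and 6.16% (5.12 to 7.39). Over all 19222 autosomal protein-coding genes they were 19.5%, 37.4% and 6.12%. The ETS share was 10.1% in the 5399 genes with loops shared with LNCaP but none common, so the higher share was found in both sets of genes that LNCaP also listed. TATAAA was in 2.29% of windows of common genes, 3.51% of those of the neither-only genes and 5.35% of all. The YY1 letters were in 0.970%, 0.288% and 0.557%, and the NRF1 core in 0.793%, 0.403% and 0.739%. In the 5399 genes shared with LNCaP but not common, TATAAA was in 2.22%, the YY1 letters in 1.00% and the NRF1 core in 1.35%. A CCAAT box was in 21.6% of these and a GC box in 46.0%.

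Common loops were short. Their spans, from anchor centre to anchor centre, ran from 3.29 kb to 1079 kb, with a median of 33.8 kb (95% order-statistic interval 31.7 to 35.7) and the central 50% between 17.7 and 71.4 kb. Loops found in neither list had a median of 108 kb (106 to 110), those found in LNCaP alone 81.4 kb (79.6 to 83.4) and those found in Ishikawa alone 36.8 kb (34.0 to 40.0). Spans were thus short in each class that the Ishikawa list shared. The common median was below that of loops found in neither list on 22 of 22 autosomes. These intervals cover counting error only, and loops that share an anchor are not independent. The share of T-47D loops that were common fell from 9.88% under 20 kb and 8.98% at 20 to 50 kb to 5.64%, 2.95%, 1.02% and 0.496% in the bins with upper edges of 100, 200 and 500 kb and above 500 kb. Anchor width differed little, with a median of 2.88 kb in common loops and 2.99 kb in those found in neither list.

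**Figure D1:**
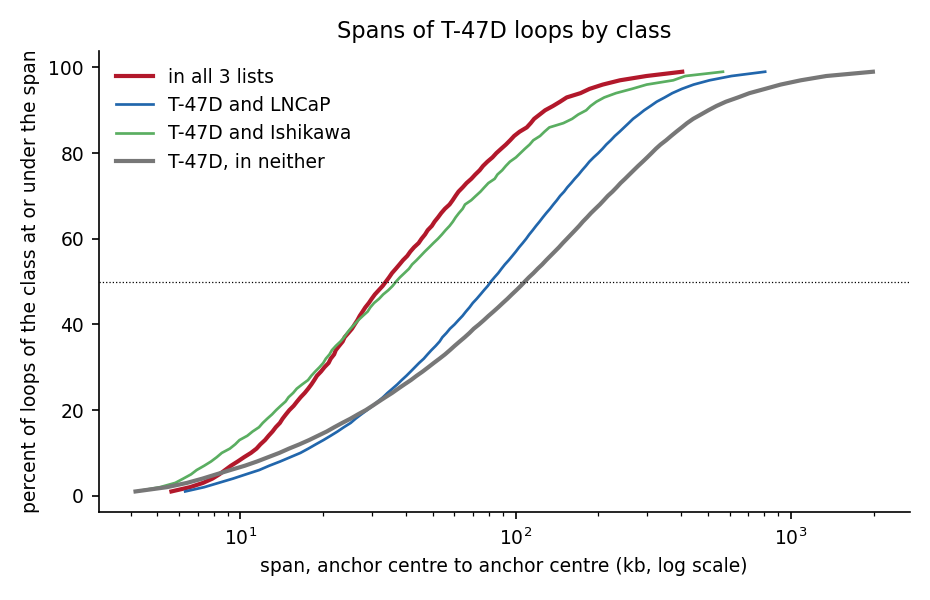
Cumulative percent of T-47D loops (y axis) against span in kb on a log scale (x axis), from the 1st to the 99th percentile, for loops in all 3 lists, shared with LNCaP alone, shared with Ishikawa alone and in neither list. The dotted line marks the median, reached at 33.8 kb by the common loops and at 108 kb by the loops found in neither list.

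The longest common loop, of 1079 kb on chromosome 3, ran from the promoter of NAALADL2 to a long non-coding RNA gene, with 3 read pairs in T-47D, 18 in LNCaP and 7 in Ishikawa. The next, of 778 kb, joined an anchor over an exon of CISH, a feedback inhibitor of cytokine signalling, to the promoter of MANF, a protein of the endoplasmic reticulum stress response. It had 5, 19 and 5 read pairs. A loop of 604.5 kb on chromosome 12 joined ERC1 and RAD52 to FBXL14, with 3, 5 and 4 read pairs. In T-47D these 3 loops sat at or near the minimum of 3 read pairs. Of the 14 common loops longer than 500 kb, the strongest in T-47D were 2 loops of CCND1, described with the genes of the G1 phase.

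Common loops were also among the stronger loops of the T-47D list. Their median was 9 T-47D read pairs, against 5 for LNCaP alone, 6 for Ishikawa alone and 4 for neither. Of loops with 3 T-47D read pairs 2.05% were common, and this share was 2.85% at 4, 5.18% at 5 to 9, 9.69% at 10 to 19, 14.6% at 20 to 49 and 14.3% (11.6 to 17.4) from 50 on. Even so, 49.5% of T-47D loops with 50 or more read pairs were in neither list. Stronger loops were also shorter. At 10 or more read pairs the median span was 23.2 kb (21.7 to 25.6) for common loops and 29.5 kb (27.3 to 31.7) for loops found in neither list. The difference, common minus neither, was -6.33 kb there, against -74.2 kb over all loops, and below 10 read pairs the medians were 49.7 and 129 kb.

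**Figure D2:**
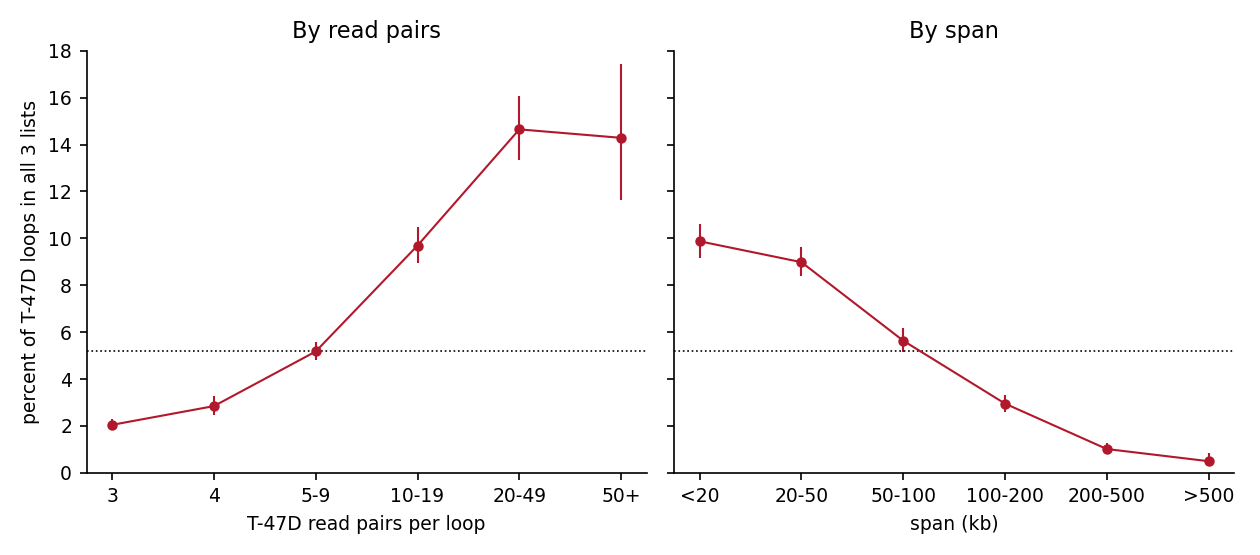
Percent of T-47D loops found in all 3 lists (y axis) by T-47D read pairs per loop (left) and by span in kb (right), with 95% Wilson intervals as bars and the share over all T-47D loops, 5.19%, as a dotted line. The share rose from 2.05% at 3 read pairs to 14.6% at 20 to 49, and fell from 9.88% under 20 kb to 0.496% above 500 kb.

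In the other lists, the strongest loop matched by each common loop had a median of 19 read pairs in LNCaP and 5 in Ishikawa. These medians were at the 87.7th percentile of the LNCaP list and the 61.2nd of the Ishikawa list, against the 76.9th in T-47D. In Ishikawa 33.9% of the matches had no more than the minimum of 3 read pairs, in LNCaP 4.87%. Read pairs over the 2157 loops ranked alike to a moderate degree between T-47D and LNCaP (Spearman's rho 0.432, Pearson's r of log2 values 0.44) and weakly between T-47D and Ishikawa (0.115 and 0.12) and between LNCaP and Ishikawa (0.134 and 0.17). These are descriptions across loops that share anchors and span. In all, 308 common loops had 10 or more read pairs in every list, and 8 had 3 in every list. Nearly every common loop matched a single loop elsewhere (99.4% in LNCaP and 99.3% in Ishikawa), but neighbouring T-47D loops could match the same wide one, so the 2157 loops corresponded to 1992 LNCaP and 1890 Ishikawa loops.

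**Figure D3:**
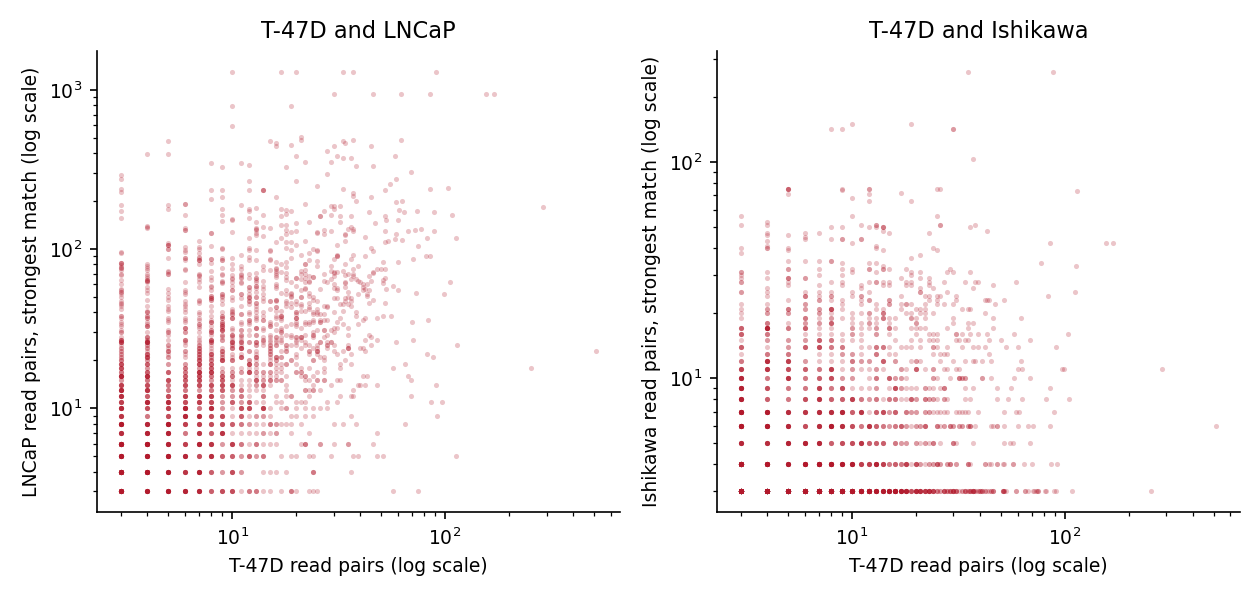
Read pairs of the 2157 common loops in T-47D (x axes, log scale) against those of the strongest matching loop in LNCaP (left) and in Ishikawa (right; y axes, log scale), with 1 point per T-47D loop. Many Ishikawa matches lie at the minimum of 3 read pairs (33.9%), and the ranks follow T-47D more closely in LNCaP (rho 0.432) than in Ishikawa (rho 0.115).

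Several T-47D loops inside 1 wide loop were seen beside MALAT1, an abundant nuclear long non-coding RNA. From chr11:65243733-65248122, T-47D loops with 169, 156 and 85 read pairs ran to 3 separate anchors 8.41, 19.98 and 14.6 kb away, the second of them over MALAT1 itself. All 3 matched a single LNCaP loop with 938 read pairs and a single Ishikawa loop with 42. None of these anchors held the start site of a protein-coding gene. These 3 led the ranking by lowest percentile. The last of the 8 leading loops joined the promoter of PWWP2B on chromosome 10 to a long non-coding RNA gene, with 37, 214 and 103 read pairs.

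The T-47D loops with the most read pairs among the common ones lay within GSE1 on chromosome 16. The loop from chr16:85491053-85508912, an intron, to the promoter at chr16:85642451-85649005 had 513 read pairs in T-47D, the most of any T-47D loop, 23 in LNCaP and 6 in Ishikawa. A nearer intron at chr16:85602206-85606453 contacted the same promoter with 287, 183 and 11 read pairs. A loop between introns had 254, 18 and 3. GSE1 had 8 common promoter loops of 41, which held 1049 of its 1512 T-47D read pairs. The strongest loop found in neither list, with 317 read pairs, also lay in introns of GSE1. Common contacts and contacts found in neither list thus stood side by side within this gene.

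Common loops often joined promoters to each other. A promoter was 500 bp centred on any start site of a protein-coding gene. Of the common loops 56.9% (54.8 to 59.0) had promoters at both anchors, 31.0% at 1 anchor and 12.1% (10.7 to 13.5) at none. Loops found in neither list had 23.2% (22.7 to 23.8), 44.03% and 32.8% (32.2 to 33.4). The difference was 33.7 percentage points (31.5 to 35.9) for promoters at both anchors and -20.7 points (-22.1 to -19.1) for none. With the 3 lists cut to equal length these differences were 18.2 and -9.63 points. Among T-47D loops with 10 or more read pairs the difference for none was -34.9 points. Promoters at both anchors were the more frequent in common loops on 22 of 22 autosomes, and loops with none the less frequent on 21. The exception was chromosome 14, with 33.0% of common loops and 31.1% of loops found in neither list.

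Loops found in LNCaP alone had promoters at both anchors in 57.8% (56.9 to 58.6) and at none in 9.77%, close to the common loops, and the common share was the higher one on 10 of 22 autosomes. Loops found in Ishikawa alone had 22.6% (20.8 to 24.5) and 30.8%, close to loops found in neither list. Both classes that LNCaP shared had the high share, and both classes without LNCaP the low one.

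Within bins of span the order was less even. Under 20 kb, 59.2% of common loops (55.4 to 63.0) joined promoters, against 44.4% (42.1 to 46.7) of those found in LNCaP alone, 22.1% in Ishikawa alone and 16.1% in neither. At 20 to 50 kb these shares were 58.7%, 55.5%, 20.1% and 15.5%. From 50 to 100 kb the common share of 54.6% (50.04 to 59.2) was below that of LNCaP alone, 60.5% (58.8 to 62.2). From 100 to 200 kb the shares were 57.7% and 60.5%. From 200 to 500 kb the common share was 38.0% of 79 loops, against 62.3% in LNCaP alone and 29.6% in neither, and above 500 kb it was 28.6% (11.7 to 54.6) of 14 loops. The share was lowest in the longest common loops, but highest in the longest loops of LNCaP alone and of neither list. Among loops with 10 or more T-47D read pairs, promoters were at both anchors of 60.6% of common loops and of 14.3% of loops found in neither list.

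**Figure D4:**
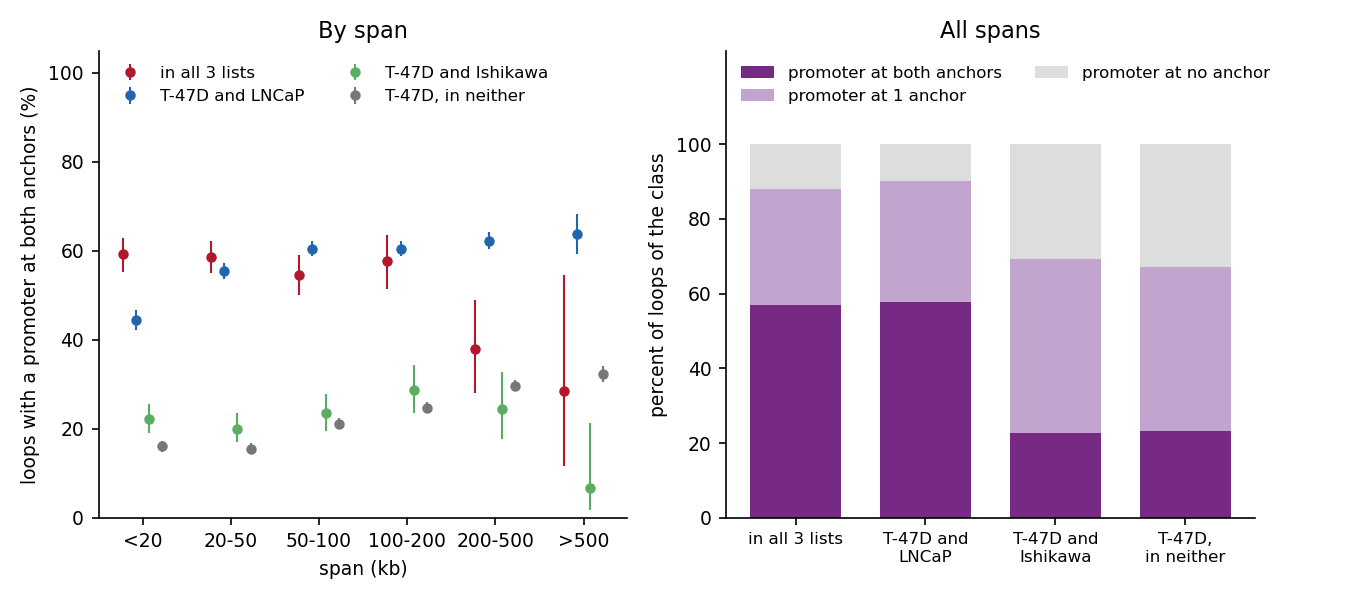
Left, percent of T-47D loops with a promoter at both anchors (y axis, 95% Wilson intervals) by span in kb for the 4 classes of loops. Right, percent of loops of each class with a promoter at both anchors, at 1 or at none: 56.9%, 31.0% and 12.1% in all 3 lists, against 23.2%, 44.03% and 32.8% in neither list.

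The same promoters were found in the matched anchors. Of 3125 promoter anchors counted over the common loops, 99.6% had the promoter of the same gene in the matching LNCaP anchor, 98.6% in the Ishikawa anchor and 98.3% in both. For 96.3% of the 1228 promoter-to-promoter loops, both ends held the same genes' promoters in every list. The members were chosen by overlap of both anchors, so high shares largely follow from the rule. Anchors were also wider in LNCaP and Ishikawa, and the part of width in these shares was not tested.

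The common loops used 2635 anchors, 74.0% of them over a promoter. Of 7553 anchors that took part only in loops found in neither list, 26.9% were over a promoter, and of all 19066 T-47D anchors 49.03%. Anchors of common loops had a median of 6 partners in T-47D, the neither-only anchors 2 and all T-47D anchors 3. An anchor with more partners had more loops that could be common, and a neither-only anchor had no matched loop. The way the sets were made thus favours this order. Where an anchor of a common loop had no protein-coding promoter, 18.95% (16.2 to 22.1) lay over the promoter of a long non-coding RNA, against 6.72% (6.09 to 7.41) of distal neither-only anchors and 9.44% of all distal anchors. Their sequence was richer in G and C, with a median of 49.5% in the 2 kb around the centre, against 43.8%, and 45.1% over all distal T-47D anchors.

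Short motifs in the 2 kb around the anchor centre, on either strand, gave a further description. The ETS letters CCGGAAG were in 39.6% (37.4 to 41.7) of promoter anchors of common loops, 26.0% (24.1 to 27.9) of those of neither-only anchors and 35.0% of all. In distal anchors the shares were 16.2% (13.6 to 19.1), 8.57% (7.86 to 9.33) and 9.83%. The GATA letters AGATAAG went the other way in distal anchors, with 18.8% (16.1 to 21.9) against 23.02% (21.9 to 24.1). AP-1 letters (TGANTCA) were in 48.98% and 48.4% of distal anchors and FOXA letters (TGTTTAC) in 29.6% and 28.9%, with overlapping intervals. GC content differs between these sets and moves with the ETS share. Its part in the ETS and GATA shares was not tested, and a match is a description of letters, not a bound site.

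CTCF cores were too rare to separate the classes. CTCF is the factor at which cohesin-driven loops usually stop, most often at motifs that face each other. The CTCF core was present at both anchors of 3 common loops (0.139%, 0.0473 to 0.408) and of 16 loops found in neither list (0.0684%, 0.0421 to 0.111). The difference was 0.0707 percentage points, with an interval from -0.0305 to 0.341. In whole anchors the counts were 7 and 46, and 2 of the 7 common pairs faced each other. The strongest facing pair lay on chromosome 1, between chr1:155148413-155150614 and chr1:155160686-155164962, with 30 read pairs in T-47D, 8 in LNCaP and 3 in Ishikawa. Its cores are given in capitals, with 9 flanking bases on each side, 5′ to 3′ on the strand of the core.
left anchor, chr1:155149253-155149282, plus strand: cagtatgtaCCACCAGGTGGCactgtggag
right anchor, chr1:155163427-155163456, minus strand: tcccggtgaCCACTAGAGGGCgggaggagc

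Where a common loop joined a promoter to a distal anchor, that anchor lay inside the same gene in 27.8% (24.5 to 31.3) of 669 loops, inside another gene in 24.1% and between genes in 48.1%. For loops found in neither list the shares were 19.8%, 32.2% and 48.0% of 10302. The share inside the same gene was 31.8% for Ishikawa alone and 21.8% for LNCaP alone. Common loops lay in gene-rich places. A median of 5 protein-coding genes started within 100 kb of the loop's centre, against 2 for loops found in neither list, 4 for LNCaP alone and 3 for Ishikawa alone. Among loops under 50 kb the medians were 6, 2, 5 and 3. No gene started between the anchors of 55.7% of common loops and 45.8% of loops found in neither list. The share was 62.1% for Ishikawa alone and 38.5% for LNCaP alone. Spans differ between the classes, and the part of span in these shares was not tested.

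By gene, 9739 of 19222 autosomal protein-coding genes had a promoter in a T-47D loop anchor, and 2269 of them (23.3%, 22.5 to 24.1) had 1 in a common loop. For 1439 genes it was a single common loop, and for 123 every T-47D loop was common. The share depended on how many T-47D loops a gene had: 6.22% of genes with 1 loop, 15.3% with 2 to 4, 29.6% with 5 to 9, 45.1% with 10 to 19 and 55.9% with 20 or more. The lists of genes below were compared with 23.3% by their counts alone. The median was 4 T-47D loops per gene over all promoter-loop genes. It was 4 for proteasome subunits and androgen response genes, 5 for chromatin enzymes and G1 genes, and 6.5 for translation factors. For nuclear receptors it was 8 and for HOX genes 12. Other medians, where given, stand with their lists.

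Of 67 cytosolic ribosomal protein genes with a T-47D promoter loop, 25 (37.3%, 26.7 to 49.3) had a common loop, at a median of 5 T-47D loops per gene. RPL41 had 11 common loops, RPS26 9, and RPLP0 and RPS29 3 each. The RPLP0 promoter, on chromosome 12, met the promoter of GCN1, a sensor of stalled ribosomes, 6.02 kb away with 74 read pairs in T-47D, 174 in LNCaP and 3 in Ishikawa. Among 28 proteasome subunits 11 (39.3%, 23.6 to 57.6) were in common loops. PSMB3 had the most T-47D read pairs in them, 72 over 3 loops. The PSMB3 loop to the promoter of CISD3 spanned 20.5 kb and had 38, 334 and 3 read pairs. Of 28 translation factors 7 (25%, 12.7 to 43.4) were in common loops, near the share over all genes. EIF4A1, the helicase of cap-dependent initiation, had 6 common loops, 6 found in LNCaP alone and none found in neither.

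Splicing factors had 16 of 42 genes (38.1%, 25 to 53.2) in common loops, at a median of 6.5 T-47D loops per gene. The strongest joined start sites of HNRNPF, an RNA-binding protein of the hnRNP family, across 11.03 kb with 103, 243 and 16 read pairs. SRSF9 had 5 common loops and SRSF1 2. Chromatin enzymes had 15 of 49 (30.6%, 19.5 to 44.5). KAT8, the acetyltransferase of histone H4 lysine 16, had 7 common loops of 16, with contacts to VKORC1, BCKDK and PRSS36 among them. One of them, over 12.5 kb between start sites of KAT8, had 13 read pairs in T-47D, 46 in LNCaP and 40 in Ishikawa. KMT2D had 3 common loops, EHMT1 3 and SETD1B 4.

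Replication-dependent histone genes had 13 of 43 genes (30.2%, 18.6 to 45.1) in common loops, but their clustered promoters share anchors, so these were 8 loops. They had a median of 23 T-47D loops per gene, and genes with 20 or more loops were in common loops in 55.9% of cases. The anchor over H1-4 and H2BC5 on chromosome 6 met that over H2AC6 and H2BC4 with 69 T-47D, 303 LNCaP and 5 Ishikawa read pairs across 33.8 kb. It also met H4C5 with 29, 352 and 3, and H3C4 with 22, 352 and 9. The equal LNCaP values may be those of a single LNCaP loop matched by both.

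Epithelial junction and keratin genes had 12 of 29 (41.4%, 25.5 to 59.3) in common loops at a median of 7 T-47D loops per gene. LLGL2, a cell polarity protein, had 3, among them an 8.90 kb contact with an anchor over CASKIN2 with 44, 29 and 13 read pairs. SPINT1, an inhibitor of membrane serine proteases, had 4, which led to the promoters of RHOV, VPS18, RMDN3 and GCHFR with 12 to 27 T-47D read pairs. JUP, or plakoglobin, had 3 common loops. KRT8, the simple-epithelium keratin, had 4. Its strongest ran 39.04 kb to an anchor over an exon of KRT8, with 27, 125 and 28 read pairs.

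Immediate-early and stress genes had 15 of 47 (31.9%, 20.4 to 46.2) at a median of 7 T-47D loops per gene. HSPA1A, the inducible heat shock protein 70 gene, had 5 common loops. The shortest of these, over 7.22 kb, had 25 read pairs in T-47D, 15 in LNCaP and 56 in Ishikawa. The loop to the HSPA1B promoter had the same 15 and 56, which may be those of a single loop in each list. Read pairs were not scaled for the depth of the lists. KLF10 contacted intergenic anchors 153 and 156 kb away with 37 and 30 T-47D read pairs. Both contacts had 68 in LNCaP and 18 in Ishikawa, again perhaps from a single loop in each list. IER5 met an intergenic anchor 46.0 kb away with 48, 5 and 4 read pairs. The orphan nuclear receptor NR4A1 had 1 common loop with 46, 48 and 27.

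Cell cycle genes of G1 had 6 of 19 (31.6%, 15.4 to 54.0). CCND1, or cyclin D1, was joined to anchors in an intron of TPCN2 at chr11:68872245-68875641 and chr11:68888141-68893057, 584 and 567 kb away. The first had 85 read pairs in T-47D, 90 in LNCaP and 9 in Ishikawa, and the second 69, 12 and 15. These were far stronger in T-47D than the longest common loops, which had 3 to 5. CDK2, the partner of cyclin E, had 9 common loops of 15. CDKN2A and CDKN2B shared 1 loop with 40, 14 and 3 read pairs.

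Nuclear receptors had 9 of 29 (31.0%, 17.3 to 49.2), at a median of 8 T-47D loops per gene. Over all genes with 5 to 9 loops the share was 29.6%. RARA, the retinoic acid receptor alpha gene, had 87 T-47D loops, of which 2 were common and 74 were found in neither list. Both common ones joined its promoter region to an exon of the gene 13.04 and 19.5 kb away, with 83 and 26 T-47D read pairs. Both had 36 in LNCaP and 24 in Ishikawa, which may be those of a single loop in each list. RARG had 2 common loops. Of 12 HOX genes with T-47D promoter loops, HOXC4, HOXC6 and HOXC9 were in common loops through the same loop, of 16.3 kb, with 25, 31 and 3 read pairs.

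Genes that respond to estrogen had 9 of 28 (32.1%, 17.9 to 50.7) in common loops, at a median of 8.5 T-47D loops per gene. GREB1, a cofactor of the estrogen receptor, had 2 of 23. The promoter at chr2:11676489-11682561 met an intron of GREB1 39.8 kb away with 67 T-47D, 16 LNCaP and 6 Ishikawa read pairs. Another start site met the promoter of E2F6 14.9 kb away with 37, 13 and 3. MYBL1 had 2 of 22, with 57 T-47D read pairs but 3 in LNCaP and 4 in Ishikawa in the stronger 1. Genes that respond to androgen had 4 of 24 (16.7%, 6.68 to 35.9), among them KRT8, IDI1 and HOMER2. The intervals of these lists overlap each other, and their order was not tested.

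**Figure D5:**
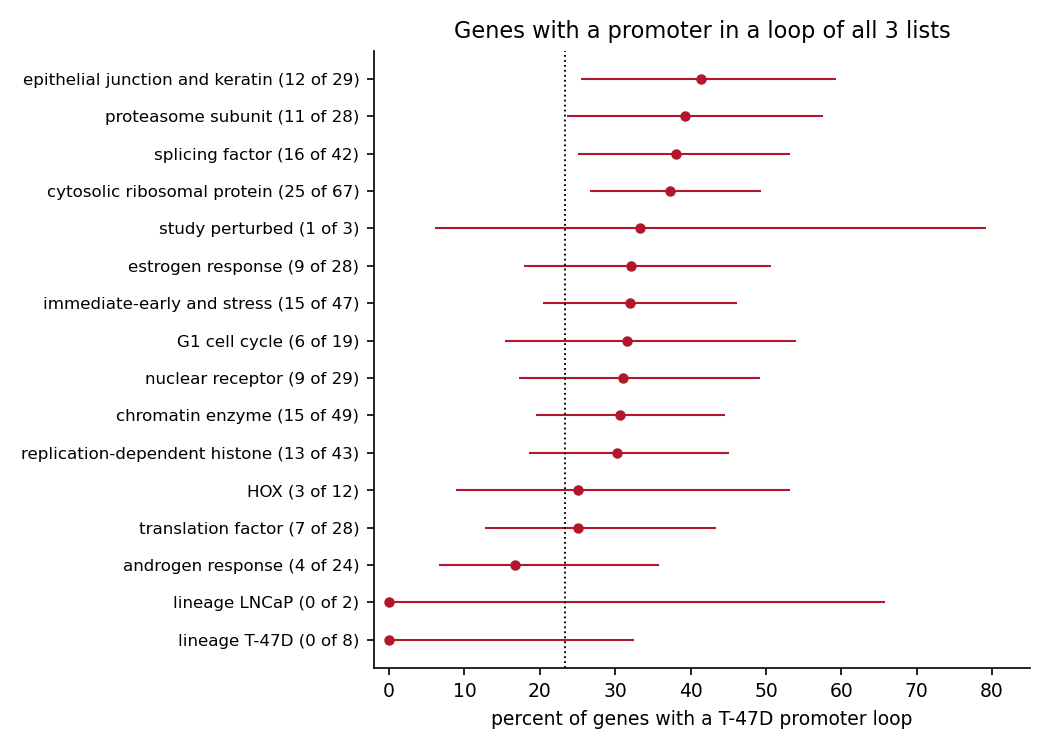
Percent of genes with a T-47D promoter loop that also had a promoter in a common loop (x axis), with 95% Wilson intervals, for each list of genes (y axis, counts in parentheses). The dotted line marks all T-47D promoter-loop genes, 23.3%, and the points run from 0 of 8 for T-47D lineage factors to 12 of 29 for epithelial genes.

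The lineage factors of T-47D had no common loop although they had many loops. None of the 8 with a T-47D promoter loop was in a common loop (0%, up to 32.4% by the Wilson interval), at a median of 25 loops per gene. The share over all promoter-loop genes, 23.3%, lies inside that interval. At the promoters of GATA3, TRPS1 and PGR the LNCaP list held 0, 1 and 0 loops and the Ishikawa list 1 each. There was thus little in those lists for the T-47D loops of these 3 genes to match. All 58 loops of GATA3, all 91 of TRPS1, all 23 of PGR, all 14 of TFAP2A and all 9 of TFAP2C were found in neither list. ESR1, the estrogen receptor alpha gene, had 32 loops, of which 7 were found in Ishikawa alone, 2 in LNCaP alone and 23 in neither. FOXA1 had 13 of 27 found in LNCaP alone, and SPDEF 6 of 10. Of the LNCaP factors, TMPRSS2 had 3 T-47D loops, of which 2 were found in Ishikawa alone. The 8 listed Ishikawa factors had no T-47D promoter loop. The genes with the most T-47D read pairs in loops found in neither list, and no common loop, were TRPS1 with 2557, GATA3 with 1063, BMPER with 1045, MED13L with 916 and PRLR, the prolactin receptor gene, with 666.

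TGFA, which encodes a ligand of the epidermal growth factor receptor and was perturbed in the study, had 3 T-47D loops, of which 2 were found in Ishikawa alone. The 3 loops of PEG10, also perturbed in the study, were found in neither list.

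Common loops were clustered. Joined through shared anchors they fell into 862 groups, of which 533 were single loops and 35 held 10 or more loops, 590 in all. The largest, over 723 kb of chromosome 12 (chr12:56121310-56844304), had 47 common loops between 22 anchors, every loop joining promoters at both ends. These were 29.7% of the T-47D loops there. It held the genes with the most common loops: PMEL, a melanosome protein whose promoters lie beside those of CDK2, with 15, ESYT1 with 12, and RPL41 and ZC3H10, which share all their anchors, with 11 each. RPS26 and CDK2 had 9. The region also held 266 LNCaP and 255 Ishikawa loops. RHOF, farther along chromosome 12, had 11.

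The second group lay on chromosome 11 (chr11:118441889-119079162), with 34 common loops around C2CD2L and DPAGT1, the first enzyme of N-glycosylation, which had 9 each through the same anchors. Promoters were at both ends of 19. The third, on chromosome 14 (chr14:77277889-77565323), was of another kind. It had 31 common loops, 62.0% of the T-47D loops there, around IRF2BPL, and only 2 joined promoters. The loop from IRF2BPL to an anchor 17.5 kb away had 62, 481 and 12 read pairs, and that to an anchor 70.8 kb away 25, 39 and 75. The fourth, on chromosome 9 (chr9:131900603-132405542), had 28 loops, 1 of them between promoters, and held the immediate-early gene IER5L, 3 of whose loops reached 206 to 318 kb. The fifth, on chromosome 3 (chr3:176453797-177529337), had 25 loops, none between promoters, around TBL1XR1, a subunit of nuclear receptor corepressor complexes.

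By chromosome, the common share ran from 2.37% on chromosome 21 to 9.54% on chromosome 12, with 7.29% on chromosome 10. The Ishikawa list was densest on the same 2 chromosomes, at 152 loops per Mb on chromosome 12 and 119 on chromosome 10, against 56.7 over all autosomes. T-47D had 17.7 and 12.7 loops per Mb there, and 14.4 over all autosomes. The part of the Ishikawa density in the common share was not tested, but without chromosomes 3, 10 and 12 the share was 4.81%, and the differences in span and promoters were 73.3 kb and 33.1 points.

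Presence in several parts of the Ishikawa list gave another view of the matches. That list is 4 sorted blocks, not tied to samples by its columns, and 46.8% (44.7 to 48.9) of the common loops matched an Ishikawa loop present in 2 or more blocks, against 33.8% of all Ishikawa loops and 51.6% (49.4 to 53.7) of those matched by T-47D loops found in Ishikawa alone. All 4 blocks held the match of 11.5% of common loops, 11.9% of loops found in Ishikawa alone and 3.99% of all Ishikawa loops.

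Most common loops met the rule by a wide margin. The smaller of the anchor overlaps had a median of 2048 bp, and 82 loops overlapped by less than 500 bp, 54 of them by less than 10 bp. Those 82 had a median span of 37.4 kb, a median of 9 T-47D read pairs and promoters at both anchors in 48.8%. Widening the T-47D anchors by 500 bp would have added 195 loops, with a median span of 36.4 kb, a median of 9 read pairs and promoters at both anchors in 35.9%. A stricter rule, an overlap of 50% or more of both anchors, left 71 loops, or 0.171% of the T-47D list, of which 78.9% joined promoters. The number of common loops thus depends on anchor widths, which differ between the lists. In the T-47D list 70 rows joined different chromosomes, and 31 common loops shared an anchor with those.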

How the data were processed

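Per the labels and the study's methods, the authors aligned reads to hg19 with HiC-Pro and called loops with hichipper (versions not given in the sources used here), dropped loops with under 3 reads or an FDR of 0.05 or more, and combined replicates and treatments. The deposited value is a count of read pairs per loop. Here, pairs of 2 different anchors on 1 autosome were kept, duplicate rows of the Ishikawa list were summed, and loops were matched by overlap of both anchors. Contacts within 1 anchor, across chromosomes or on chromosome X were left out. Promoters were taken from GENCODE (GRCh37), and sequences from the same build, at whose GATC sites 99.99% or more of anchors of each list began. The study used RefSeq start sites. Shares have 95% Wilson intervals and medians order-statistic intervals. They cover counting error only. Differences combine both intervals. Read pairs of genes in LNCaP and Ishikawa are those of the strongest match and may count 1 loop several times. Python 3.11.15, numpy 2.4.6, scipy 1.17.1, pandas 2.3.3 and pysam 0.24.0 were used, and the matching was tested on simulated data. The named loops were the 8 with the highest lowest percentile, the 3 longest and the 3 strongest in T-47D. The named genes were the 10 with most common loops, up to 4 per gene list by T-47D read pairs, lineage genes, genes the study perturbed, and the 5 leading genes without a common loop. Partners and further examples, and the 123 genes with every loop common, were chosen after their values were seen. The members and the lists of genes were chosen with earlier results of these data known. Some genes and 1 sequence that this rule names are not reported here.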

Additional observations from a re-analysis of the deposited data

Results flagged for a closer look

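The T-47D list also holds contacts of an anchor with itself, which no comparison above used. Such a contact was listed for 88.0% (86.8 to 89.2) of the 2635 anchors of common loops, with a median of 20 read pairs, against 51.5% (50.4 to 52.6) and 8 read pairs for the 7553 anchors of loops found in neither list only, and 68.5% and 12 over all T-47D anchors. The T-47D list has no control sample of its own, and the part of read depth at an anchor was not tested.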

How the results depend on the processing

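No paired analysis was possible because each line has 1 list in which samples are combined and the columns carry no replicate, and for the same reason no replicate was left out. Differences are common minus neither, and those in span and promoters kept their sign under each alternative run. Requiring 5 or more read pairs in all 3 lists gave a common share of 4.06%, a span difference of -37.3 kb and 1066 genes, and 10 or more gave 3.46%, -13.4 kb and 412 genes, with -24.7 points for no promoter and -0.0582 for CTCF cores at both anchors. An overlap of 50% or more of both anchors gave 0.171%, 152 genes, 47.8 points for promoters at both anchors, -22.99 for none and -0.0638 for CTCF. Anchors of 2 kb around their centres gave 1.15%, 713 genes, 37.4 points and -24.03. Ishikawa loops in 2 or more parts gave 2.43%, 1098 genes, 28.4, -16.4 and, for CTCF, -0.0697. Lists of equal length gave 1.54%, 736 genes, -82.4 kb, 18.2, -9.63 and, for CTCF, -0.0631. Spans of 20 kb to 1 Mb gave 4.19% and -18.5 points for no promoter, and leaving out chromosomes 3, 10 and 12 gave 4.81%. Within bins of span and anchor width, the promoter differences were 38.2 and -24.5 points, and with 1 start site per gene 25.96 and -23.9. Of 3 alternatives chosen after seeing the data, T-47D loops with 10 or more read pairs gave -6.33 kb, 46.3 and -34.9 points, and 1 T-47D loop per matched pair, which kept 2006, gave 35.9 and -22.2. An overlap of 100 bp or more gave 5.06%. The sign of the CTCF difference was not stable, and 3 common loops held such a pair. The causes of these shifts were not tested.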
